A study of Mus musculus with 18 samples.

Results

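Hair cells and supporting cells sorted directly from the newborn mouse cochlea were compared, using 6 of the 18 libraries of the series. The Atoh1_P2 sort, which stands for hair cells, was set against the Lgr5_P2 and Sox2_P2 sorts, which stand for supporting cells, with 2 libraries of each. All 6 came from cochlear sensory epithelium at postnatal day 2 (P2) and were labelled as sorted. The supporting cell sorts were weighted equally, and each was also tested on its own, so that genes differing from both could be told from genes that differed from a single sort. Of the 13038 protein-coding genes that reached 1 TPM in 2 or more of these 6 libraries (TPM, transcript abundance scaled for gene length and library total), 58 differed from each supporting cell sort with the same sign, 18 higher and 40 lower in the Atoh1 sort. A further 4 libraries, from sorted cultures of primary cochlear organoids at day 10 (LCP_sorted_D10) and day 0 (LCP_sorted_D0), were used to look at those genes in samples outside the comparison. The reporter or surface marker behind each sort is given in the labels only through the sample titles, no genotype is given, and a labelled tamoxifen protocol with a β-catenin allele names no sample.

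The sensory epithelium of the cochlea holds mechanosensory hair cells, each bearing a bundle of stereocilia, among supporting cells of several kinds. The transcription factor Atoh1 drives hair cell formation, and Notch signalling between hair cells and their neighbours keeps those neighbours from the hair cell fate. Outer hair cells amplify sound through the motor protein prestin, and inner hair cells pass the signal to the auditory nerve. Lgr5, a Wnt pathway receptor, marks a subset of supporting cells at this age, and Sox2, a transcription factor of the sensory progenitor, marks supporting cells more broadly and some glia.

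The 4 genes given as markers of this comparison were Slc26a5 and Car3 on the hair cell side and Bmp4 and Npnt on the supporting cell side. The promoters of Slc26a5, Bmp4 and Npnt are shown because these genes carry the comparison, and that of Pmch because it had the lowest value of the 58 genes. Each run covers 250 bases before to 50 after the start of the gene, from RefSeq on GRCm38.p6, with matches to 4 searched motifs in capitals. Car3 is named only.
Slc26a5, chr5:21865555-21865854, minus strand: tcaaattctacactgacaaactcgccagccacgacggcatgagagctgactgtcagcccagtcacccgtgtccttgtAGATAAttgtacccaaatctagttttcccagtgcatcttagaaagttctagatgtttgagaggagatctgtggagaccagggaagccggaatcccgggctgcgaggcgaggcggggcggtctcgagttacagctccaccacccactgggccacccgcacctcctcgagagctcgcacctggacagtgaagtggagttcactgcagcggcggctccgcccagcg
Bmp4, chr14:46390620-46390919, minus strand: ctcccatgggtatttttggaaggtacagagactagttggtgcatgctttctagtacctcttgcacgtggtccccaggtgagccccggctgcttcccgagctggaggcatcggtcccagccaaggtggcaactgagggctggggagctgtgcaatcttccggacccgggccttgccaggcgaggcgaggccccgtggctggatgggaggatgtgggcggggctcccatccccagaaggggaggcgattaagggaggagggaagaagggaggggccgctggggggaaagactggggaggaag
Npnt, chr3:132950242-132950541, minus strand: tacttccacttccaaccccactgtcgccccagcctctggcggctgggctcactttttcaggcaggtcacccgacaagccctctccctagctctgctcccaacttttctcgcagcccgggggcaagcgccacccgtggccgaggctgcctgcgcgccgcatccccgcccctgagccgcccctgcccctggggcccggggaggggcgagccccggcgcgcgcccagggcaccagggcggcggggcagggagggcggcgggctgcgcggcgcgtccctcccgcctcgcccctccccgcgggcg
Pmch, chr10:88090822-88091121, plus strand: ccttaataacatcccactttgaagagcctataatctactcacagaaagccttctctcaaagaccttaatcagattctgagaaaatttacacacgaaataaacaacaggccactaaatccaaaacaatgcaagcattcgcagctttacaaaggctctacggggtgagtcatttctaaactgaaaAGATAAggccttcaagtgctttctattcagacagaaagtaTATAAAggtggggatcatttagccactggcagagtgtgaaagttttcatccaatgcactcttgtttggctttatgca
The motifs, sought on both strands and counted separately where they overlapped, were the E-boxes CAGCTG and CAGATG, the TATA sequence TATAAA and the GATA sequence AGATAA. The Slc26a5 promoter held an AGATAA, the Pmch promoter a TATAAA and an AGATAA, and these windows of Bmp4 and Npnt held none of the 4. Among all tested genes with a promoter (10158 of 13032 symbols) the shares were 14.8% for CAGCTG, 11.3% for CAGATG, 6.77% for TATAAA and 6.05% for AGATAA. Of the 12 promoters found for the 18 higher genes, 1 held CAGCTG, 4 held CAGATG, 3 held TATAAA and 2 held AGATAA. Of the 35 found for the 40 lower genes, 3 held CAGCTG, 6 held CAGATG, 4 held TATAAA and 3 held AGATAA. These counts are a description of the letters in the windows.

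The 6 libraries had 15295 to 16713 genes at 1 TPM or more, and mitochondrial transcripts took 6.25 to 12.7% of the TPM, most in Sox2 replicate 2. Replicate libraries correlated across genes at r = 0.966 (Atoh1), 0.954 (Lgr5) and 0.952 (Sox2), and libraries of different sorts at 0.901 to 0.965. Replicate numbers follow the labelled sequencing date, so the differences were also taken within each date. The labels state that each sample came from both ears of a single pup, yet 4 libraries (Atoh1 replicate 2, Lgr5 replicate 1 and both Sox2 libraries) held Xist, which is made in females, at 3.90 to 17.0 TPM together with 33.1 to 52.0 TPM of 4 Y-linked genes, and Lgr5 replicate 2 held them at 6.87 and 1.19 TPM. Whether the replicates are separate animals is therefore not settled by the files. The p-values measure the spread between libraries, which the main fit pooled over the 9 groups of all 18 libraries, cultures included. TPM carries no read depth, so counting error is unknown.

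The sort genes were checked first. Atoh1 (chr6:64729125-64731245) had 109 and 162 TPM in the Atoh1 sort, against 36.2 and 72.6 TPM in the Lgr5 sort and 49.2 and 85.2 TPM in the Sox2 sort. The Atoh1 libraries lay above the other 4, but the difference of 1.19 ± 0.57 on the log2(TPM + 1) scale (SE) did not pass the test (adjusted p = 0.356, limma across all tested genes, as for every adjusted p here), except with the sequencing date as a block and only the native libraries fitted (adjusted p = 0.00676). Lgr5 had 32.5 and 12.5 TPM in the Atoh1 sort, against 44.6 and 30.1 TPM in the Lgr5 sort and 44.0 and 27.0 TPM in the Sox2 sort. Sox2 had 59.0 and 26.5 TPM in the Atoh1 sort, against 140 and 45.7 TPM in the Lgr5 sort and 57.3 and 27.2 TPM in the Sox2 sort. Lgr5 and Sox2 overlapped between the sorts (adjusted p = 0.783 and 0.745), and neither name gene was highest by a margin in its own sort. Lgr5 overlaps the gene A930009A15Rik on the other strand, and without strand their reads cannot be told apart. All 3 sort genes were thus present in all 3 sorts, and the supporting cell libraries held hair cell transcripts at a large share of the level in the Atoh1 libraries. In these bulk libraries, fewer cells of a type and less RNA per cell cannot be told apart.

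Across the transcriptome, 209 genes (1.6% of those tested) passed the threshold of adjusted p under 0.05 between the Atoh1 sort and the mean of the supporting cell sorts, 61 higher (0.468%) and 148 lower (1.14%). With TPM rescaled to the tested genes 242 passed, split into 46 higher and 196 lower. In 197 of the 209, the Atoh1 libraries lay outside the range of the 4 supporting cell libraries. Of all tested genes 18.9% lay above that range and 11.3% below it, and the 209 were picked from these same libraries. Set against Lgr5 only, 113 genes passed (0.867%), 40 higher (0.307%) and 73 lower (0.56%). Set against Sox2 only, 201 passed (1.54%), 43 higher (0.33%) and 158 lower (1.21%). The 58 genes with the same sign in each made up 0.445% of those tested, 0.138% higher and 0.307% lower. The comparisons share the Atoh1 libraries. All 58 also passed against the mean, their libraries did not overlap, and they kept their sign on both sequencing dates. The same libraries picked these genes, and without overlap the sign on each date is fixed, so this is not separate support. The replicate number, which follows the sequencing date in the native libraries, was also taken as a block over all 18 libraries. With it, 392 genes (93 higher and 299 lower, 3.01%) passed against the mean, 230 against the Lgr5 sort and 99 against each sort, all 58 included. When only the 6 native libraries were fitted, 76 genes passed against the mean and 17 against each sort, 10 of them among the 58. With those 6 and the block together 1137 passed against the mean, 490 higher (3.76%) and 647 lower (4.96%), and 328 against each sort, 46 of them among the 58. Both counts were the highest of any setting. Without Atoh1 replicate 2 the count against the mean was 44, of which 27 were higher and 17 lower.

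**Figure D1:**
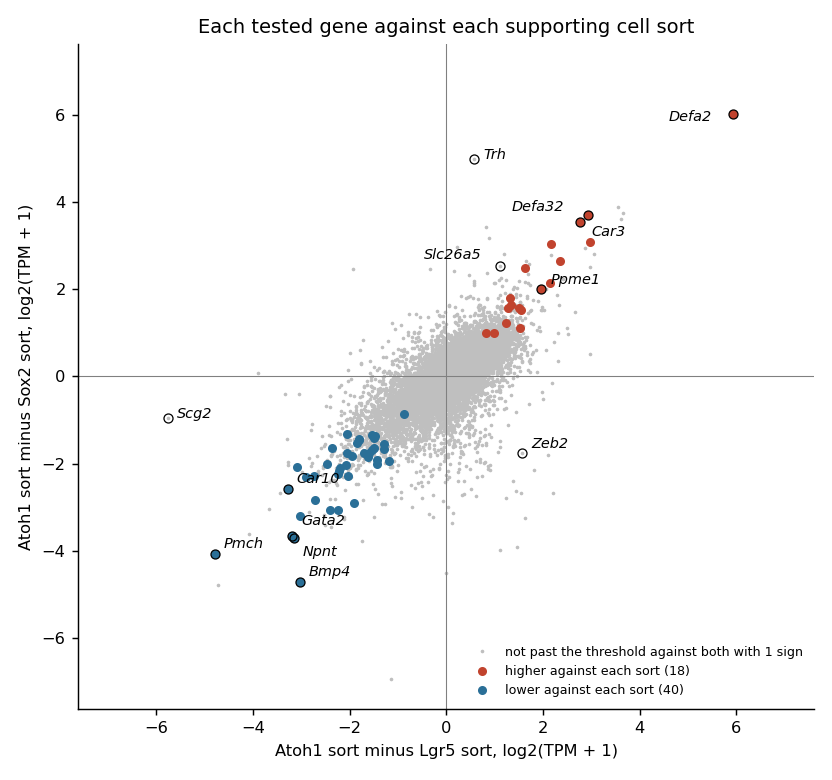
Each point is a tested gene, with the log2(TPM + 1) difference of the Atoh1 sort from the Lgr5 sort (x axis) and from the Sox2 sort (y axis); both axes share the Atoh1 libraries. The 18 genes higher and 40 lower against each sort lie in the upper right and lower left corners, while Trh, Scg2 and Zeb2 differ mainly along a single axis or with opposite signs.

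Many of the called genes were near 0 in the cultures. The 596 tested genes that did not reach 1 TPM in 2 of the culture libraries, 4.57% of those tested, held 87 of the 209 calls and 29 of the 58, 13 higher and 16 lower. The spread of such genes was estimated in part from libraries that barely express them. With only genes also expressed in the cultures tested, 45 passed against the mean and 10 against each sort. When each of the 6 native libraries was left out in turn, 20 of the 58 kept their call against the mean every time. Under all 18 alternatives 6 genes kept it: Car3 and Defa22 on the higher side and Bmp4, Npnt, Gata2 and Mgst1 on the lower side. One alternative tests only genes expressed in the cultures, so the 29 that are not could not keep a call under all 18. Pmch, Car10, Shisal2b and Bmper are among these, and they kept the call in the 17 settings that tested them.

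On the supporting cell side, Bmp4 (chr14:46383520-46390669), a secreted growth factor of the transforming growth factor β family, had 1.054 and 1.13 TPM in the Atoh1 sort, against 15.7 and 16.6 TPM in the Lgr5 sort and 37.2 and 77.1 TPM in the Sox2 sort. It was near 1 TPM in the Atoh1 libraries and far higher in every supporting cell library. The difference was −3.87 ± 0.40 (log2 scale, SE; adjusted p = 0.00028), −3.04 against the Lgr5 sort (adjusted p = 0.0107) and −4.71 against the Sox2 sort (adjusted p = 0.000168). Within the sequencing dates it was −3.62 and −4.12. Bmp4 overlaps an antisense gene, Gm15222, which reached 7.14 TPM.

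Npnt (chr3:132881745-132950291), nephronectin, is a matrix protein bound by the integrin that holds the Itga8 product. It had 2.29 and 2.94 TPM in the Atoh1 sort, against 39.3 and 24.6 TPM in the Lgr5 sort and 45.6 and 46.1 TPM in the Sox2 sort. The groups were far apart, at −3.43 ± 0.30 (adjusted p = 7e-05), with −3.16 against the Lgr5 sort (adjusted p = 0.000744) and −3.70 against the Sox2 sort (adjusted p = 0.000113). Gata2 (chr6:88193891-88207032), a zinc finger transcription factor, had 8.72 and 5.78 TPM in the Atoh1 sort, against 52.1 and 103 TPM in the Lgr5 sort and 88.5 and 116 TPM in the Sox2 sort. Its difference was also −3.43, with an SE of 0.34 (adjusted p = 0.00017). Mgst1 (chr6:138140316-138156755), a membrane glutathione transferase, was the most abundant of these genes, with 54.7 and 33.9 TPM in the Atoh1 sort, against 269.5 and 321 TPM in the Lgr5 sort and 248 and 184 TPM in the Sox2 sort (−2.51 ± 0.32, adjusted p = 0.00186).

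Pmch (chr10:88091072-88092375), which encodes the precursor of melanin-concentrating hormone, was listed at 0 and 0.0447 TPM in the Atoh1 sort, against 23.8 and 31.6 TPM in the Lgr5 sort and 11.0 and 23.2 TPM in the Sox2 sort. It was thus all but absent from the Atoh1 libraries and present in every supporting cell library (adjusted p = 1.48e-06). Car10 (chr11:93098028-93601749), a carbonic anhydrase relative without the enzyme activity, had 0.383 and 0.0907 TPM in the Atoh1 sort, against 10.3 and 11.8 TPM in the Lgr5 sort and 6.69 and 5.98 TPM in the Sox2 sort (adjusted p = 5.1e-06). Shisal2b had 7.08 and 3.35 TPM in the Atoh1 sort, against 43.4 and 51.3 TPM in the Lgr5 sort and 61.5 and 45.8 TPM in the Sox2 sort (adjusted p = 8.46e-05). Pmch, Car10 and Shisal2b were among the genes that the cultures did not express.

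The other lower genes named by rule were Sorl1, an endosomal sorting receptor, Lamb1, a laminin chain of basement membranes, the imprinted gene Mest, the secreted pentraxin Ptx3 and Bmper, a secreted protein that binds bone morphogenetic proteins. Lamb1 had 6.39 and 3.45 TPM in the Atoh1 sort, against 27.2 and 31.7 TPM in the Lgr5 sort and 36.4 and 60.2 TPM in the Sox2 sort. Sorl1 had 1.71 and 0.996 TPM in the Atoh1 sort, and 11.9 to 18.2 TPM in the 4 supporting cell libraries. Bmper had 0.406 and 0.437 TPM in the Atoh1 sort, and 2.52 to 10.095 TPM in the supporting cell libraries. None of these groups overlapped, and the differences of the 5 genes ran from −2.78 for Sorl1 to −2.41 for Bmper. Sorl1, Lamb1, Mest and Ptx3 lost their call without Atoh1 replicate 2 (adjusted p = 0.0711 to 0.131). Mest overlaps Copg2, and Ptx3 overlaps Veph1, on the other strand, with the partner at 66.6 and 20.2 TPM at most. Over all 40 lower genes the log2 differences were 0.87 to 4.43 in size with a median of 1.96, and 9 averaged under 5 TPM in the supporting cell libraries. One of these was the sensory ion channel Trpa1, with 0.198 and 0.0965 TPM in the Atoh1 sort, against 4.49 and 6.29 TPM in the Lgr5 sort and 2.86 and 4.55 TPM in the Sox2 sort, an example picked after its values were seen.

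**Figure D2:**
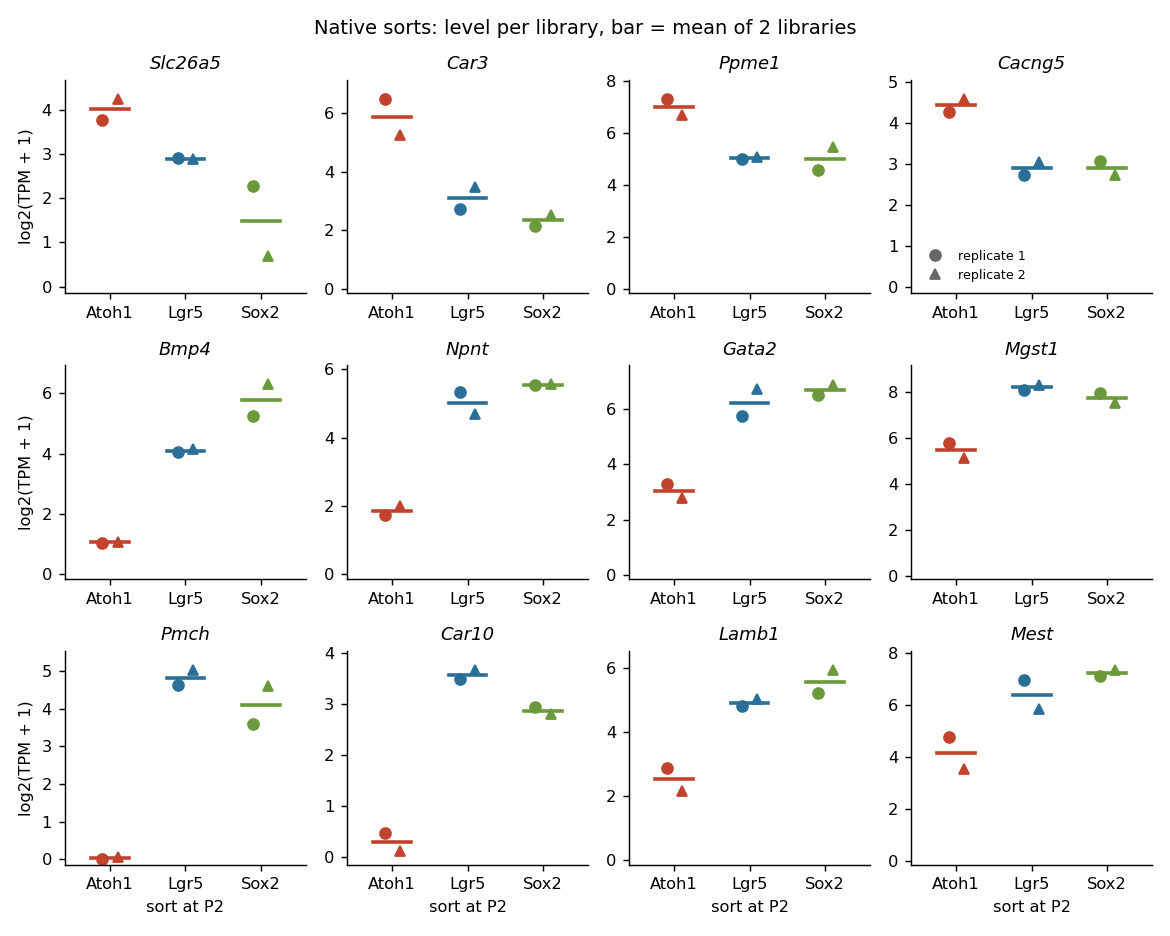
Level of 12 genes in each of the 6 native libraries, as log2(TPM + 1), with the sorts along the x axis, circles for replicate 1, triangles for replicate 2 and a bar at the mean of 2. In every panel except that of Slc26a5, whose difference from the Lgr5 sort did not pass the test, the Atoh1 sort differs from each supporting cell sort with the same sign.

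On the hair cell side, Slc26a5 (chr5:21810655-21865604), which encodes prestin, had 12.5 and 18.02 TPM in the Atoh1 sort, against 6.46 and 6.37 TPM in the Lgr5 sort and 3.84 and 0.611 TPM in the Sox2 sort. The Atoh1 libraries were above the other 4, at 1.82 ± 0.34 against the mean (adjusted p = 0.0202) and 2.52 ± 0.40 against the Sox2 sort (adjusted p = 0.00494). Against the Lgr5 sort the 1.11 ± 0.40 did not pass (adjusted p = 0.25), so prestin is not among the 58 genes. The difference between these contrasts did not pass either (adjusted p = 0.215). Within the sequencing dates the difference from the mean was 1.17 and 2.47, and the call was lost with only the 6 native libraries fitted (adjusted p = 0.0958) and without Atoh1 replicate 2 (adjusted p = 0.267).

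Car3 (chr3:14863512-14872523), a cytosolic carbonic anhydrase best known from muscle and fat, had 88.6 and 37.5 TPM in the Atoh1 sort, against 5.56 and 10.23 TPM in the Lgr5 sort and 3.45 and 4.73 TPM in the Sox2 sort. The Atoh1 libraries lay far apart from each other, yet the lower of them stood well above the highest supporting cell library. The difference was 3.16 ± 0.37 (adjusted p = 0.00096), 2.77 against the Lgr5 sort (adjusted p = 0.0118) and 3.54 against the Sox2 sort (adjusted p = 0.000894). Within the sequencing dates it was 4.05 and 2.26. Ppme1, a methylesterase of protein phosphatase 2A, had 158 and 103 TPM in the Atoh1 sort, against 31.5 and 32.6 TPM in the Lgr5 sort and 23.0 and 42.7 TPM in the Sox2 sort (1.98 ± 0.34, adjusted p = 0.0116). It lost the call without Atoh1 replicate 1 (adjusted p = 0.108) and without Atoh1 replicate 2 (adjusted p = 0.0552), and it overlaps C2cd3, which reached 11.4 TPM. Cacng5, an auxiliary subunit of AMPA-type glutamate receptors, had 18.2 and 23.2 TPM in the Atoh1 sort, against 5.64 and 7.32 TPM in the Lgr5 sort and 7.48 and 5.70 TPM in the Sox2 sort (1.53 ± 0.26, adjusted p = 0.0109, or 0.153 without Atoh1 replicate 2).

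The largest fitted difference on the higher side belonged to an α-defensin, one of a family of antimicrobial peptides best known from the Paneth cells of the gut. Defa2 had 64.5 and 63.3 TPM in the Atoh1 sort, against 0 and 0.123 TPM in the Lgr5 sort and 0 TPM in both Sox2 libraries (adjusted p = 1.48e-06). Defa22, Defa32 and Defa33 followed at 3.74 to 14.0 TPM in the Atoh1 libraries and at most 1.93 TPM in any other. Over the 39 genes of the family listed, of which 9 were detected, the summed level was 98.9 and 85.6 TPM in the Atoh1 sort, against 0 and 3.51 TPM in the Lgr5 sort and 0.146 and 0.634 TPM in the Sox2 sort. The family's copies are nearly identical, so the division of reads among them is uncertain and the family counts as a single observation. The serine protease gene Prss32 (9.87 and 5.09 TPM against at most 2.25 TPM), the homeobox gene Lbx2 (8.43 and 4.88 TPM against at most 1.47 TPM) and Icos, a costimulatory receptor of T cells (8.28 and 8.98 TPM against at most 4.17 TPM), completed the higher genes named by rule. Prss32 overlaps Prss41, which reached 10.9 TPM, and lost its call without Atoh1 replicate 1 (adjusted p = 0.0597). Icos lost its call without Atoh1 replicate 2 (adjusted p = 0.117). Of the 18 higher genes, 8 averaged under 5 TPM in the Atoh1 sort and 13 were not expressed in the cultures.

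The hair cell lists had positive medians close to each other, and how many members passed depended on the fit. Of the 73 tested genes on the 5 hair cell lists, 2 passed, Slc26a5 and Slc7a14, while with the sequencing date as a block and only the native libraries fitted 37 passed, all higher, against 3.76% of tested genes. Those 37 included Atoh1 (adjusted p = 0.00676), Chrna10 (adjusted p = 0.00825) and Otof (adjusted p = 0.0138). Of 35 tested genes of the hair bundle and its transduction machinery 34 had a positive difference (33 under either other scaling), 33 on both sequencing dates, and in 29 the Atoh1 libraries lay above all others, against 18.9% of all tested genes. The median of the list was 0.89, beside 0.08 for all tested genes, but no member passed (1.6% of tested genes did so in either direction), against 20 with the block and only the native libraries fitted. Espn, an actin bundler of stereocilia, had 334 and 428 TPM in the Atoh1 sort, against 139 and 223 TPM in the Lgr5 sort and 202 and 255 TPM in the Sox2 sort. Cib2 and Lhfpl5, parts of the transduction complex, had differences of 0.86 and 0.80. Gpsm2, which sets the position and length of stereocilia, had 323 and 470.3 TPM in the Atoh1 sort, against 131 and 235 TPM in the Lgr5 sort and 176 and 237 TPM in the Sox2 sort. It passed with the replicate number as a block over all libraries (adjusted p = 0.0352, against 0.0998 without it). The highest member was the channel gene Tmc1, with a difference of 1.78, while Ush1c lay below 0 at −0.64.

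The 10 hair cell transcription factors had a median of 0.92, 8 of them positive, and none passed. Pou4f3, Gfi1, Lhx3, Barhl1, Rbm24 and Hes6 lay above all supporting cell libraries together with Atoh1, with differences of 0.70 to 1.19 (18.9% of all tested genes lay above). Isl1 had 134 and 103 TPM in the Atoh1 sort, against 345 and 142 TPM in the Lgr5 sort and 259 and 107 TPM in the Sox2 sort, a difference of −0.71 that did not pass (adjusted p = 0.456). Of 19 synapse, channel and calcium genes, 18 were positive, with a median of 0.87 and none past the threshold. The nicotinic receptor subunits Chrna9 and Chrna10 had 312 and 354 TPM and 245 and 339 TPM in the Atoh1 sort, and at most 191 and 152 TPM in the supporting cell libraries. Otof, needed for transmitter release from inner hair cells, had 81.5 and 164 TPM in the Atoh1 sort, against 41.3 and 52.4 TPM in the Lgr5 sort and 53.0 and 70.0 TPM in the Sox2 sort.

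The lists for outer and inner hair cells had medians of 0.80 over 9 genes and 0.83 over 8. Slc26a5 was the only outer hair cell gene past the threshold. Slc7a14 was the only inner hair cell gene, with 7.999 and 12.2 TPM in the Atoh1 sort, against 2.90 and 3.26 TPM in the Lgr5 sort and 4.92 and 5.08 TPM in the Sox2 sort (1.14 ± 0.25, adjusted p = 0.043). Its call held under 7 of the 18 alternatives, and adjusted p was 0.519 without Atoh1 replicate 2. The outer hair cell calcium buffer gene Ocm had 79.8 and 423 TPM in the Atoh1 sort, against 38.9 and 139 TPM in the Lgr5 sort and 60.5 and 96.2 TPM in the Sox2 sort, so replicate 1 of the Atoh1 sort lay within the supporting cell range.

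**Figure D3:**
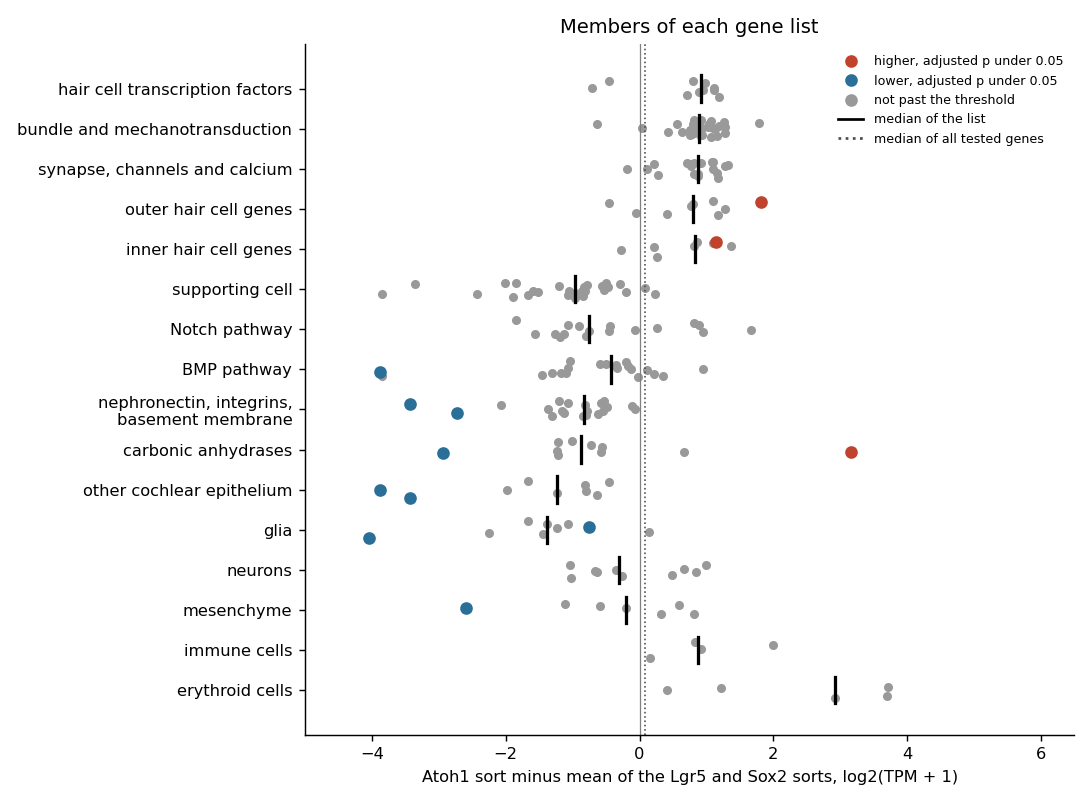
Log2(TPM + 1) difference of the Atoh1 sort from the equally weighted supporting cell sorts for the tested members of 16 gene lists, one point per gene with small vertical spread for visibility. The 5 hair cell lists have medians of 0.80 to 0.92 and the supporting cell list one of −0.96, while the members past the threshold, in red and blue, lie mostly in other lists.

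Supporting cell genes took the opposite sign, with a wider range. Of 27 tested members 25 were negative, 22 on both sequencing dates, and in 14 the Atoh1 libraries lay below all others (11.3% of all tested genes did so). The median was −0.96, and none passed, while with the block and only the native libraries fitted 12 did, all lower, against 4.96% of tested genes. Tectb was one of them (adjusted p = 0.00129). Follistatin (Fst), a secreted inhibitor of activins and bone morphogenetic proteins, had 2.101 and 0.571 TPM in the Atoh1 sort, against 36.4 and 36.6 TPM in the Lgr5 sort and 36.3 and 18.8 TPM in the Sox2 sort. This was the largest difference of the list at −3.85 ± 0.91, just outside the threshold (adjusted p = 0.0534). With the replicate number as a block over all libraries Fst was inside it (adjusted p = 0.021). Otogl passed with that block too (adjusted p = 0.0453, against 0.143). With only the native libraries fitted and no block, members that passed included Fst and Npy (adjusted p = 0.00763 for each), S100b (adjusted p = 0.0395) and Sox10 (adjusted p = 0.0457). Tectb, a component of the tectorial membrane, had 479 and 295 TPM in the Atoh1 sort, against 4399 and 1562 TPM in the Lgr5 sort and 1515 and 507 TPM in the Sox2 sort (adjusted p = 0.366). S100a1 did not separate, with 1035 and 796 TPM in the Atoh1 sort and 676 to 1408 TPM in the supporting cell libraries. The summed level of the list was 2970.3 and 1776 TPM in the Atoh1 sort, against 9554 and 5023 TPM in the Lgr5 sort and 5327 and 2661 TPM in the Sox2 sort, so replicate 1 of the Atoh1 sort overlapped replicate 2 of the Sox2 sort.

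In the Notch pathway, ligands and target genes took opposite signs, and none of the 17 tested members passed. With the block and only the native libraries fitted 4 were higher and 7 lower, where 3.76% of tested genes were higher and 4.96% lower. Hes1 (adjusted p = 0.0016) and Hes5 (adjusted p = 0.0406) were among the lower. The ligand genes Dll1 and Jag2 had 26.5 and 37.4 TPM and 77.2 and 103 TPM in the Atoh1 sort, above at most 12.9 and 57.5 TPM in the supporting cell libraries (1.66 and 0.89, adjusted p = 0.145 and 0.23). The receptor gene Notch1 and the targets Hes1, Hey1 and Hes5 had differences of −1.85, −1.56, −1.19 and −1.07. Hes5 had 314 and 79.1 TPM in the Atoh1 sort, against 1901 and 225 TPM in the Lgr5 sort and 285 and 101 TPM in the Sox2 sort, so its high value rested on Lgr5 replicate 1. Hes5 overlaps Gm20421 on the other strand, which reached 80.0 TPM. The target Hey2 did not pass without the block (−1.27, adjusted p = 0.146) and did with the replicate number as a block over all libraries (adjusted p = 0.0496).

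Of 20 tested genes on the list of bone morphogenetic protein signalling, Bmp4 was the only member past the threshold, and the list's median was −0.43. Bmper, described above, was not on this list and passed as well (−2.41, adjusted p = 0.00208). With the block and only the native libraries fitted 6 members passed, all lower, against 4.96% of tested genes. The antagonist genes Nog and Fst and the feedback genes Smad6 and Bambi lay below all supporting cell libraries in the Atoh1 sort, as did 11.3% of all tested genes. They did not pass, and of these Fst alone passed with the block over all libraries. The Id genes, which this pathway induces, did not pass, though Id2 and Id3 did with the block and only the native libraries fitted (adjusted p = 0.00234 and 0.00826). Id3 had 544 and 217 TPM in the Atoh1 sort, against 1543 and 608 TPM in the Lgr5 sort and 764 and 413 TPM in the Sox2 sort (−1.10 ± 0.89). The receptor gene Bmpr1b had the opposite sign, with 3.57 and 5.57 TPM in the Atoh1 sort and 1.15 to 2.35 TPM in the supporting cell libraries (0.95, adjusted p = 0.128).

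Around nephronectin, all 20 tested genes of its receptors and of the basement membrane had a negative difference (19 under quantile normalization), with a median of −0.83. Npnt and Lamb1 fell in the Atoh1 sort, and with the block Frem2 and Itgb1 were among those that also passed. Itgb1, the integrin β chain shared by the nephronectin receptor, had 38.7 and 21.9 TPM in the Atoh1 sort, against 92.3 and 52.4 TPM in the Lgr5 sort and 69.7 and 44.7 TPM in the Sox2 sort (−1.07, adjusted p = 0.226, and 0.0195 with the block). Its partner Itga8 did not separate, with 32.5 and 20.8 TPM in the Atoh1 sort. Its levels were 141 and 14.5 TPM in the Lgr5 sort and 103 and 21.3 TPM in the Sox2 sort. Among the replicate 1 libraries the Atoh1 sort was lowest, while among those of replicate 2 it lay between the other sorts. Of 10 tested carbonic anhydrase genes, Car3 was higher and Car10 lower. The other 8 did not pass, among them Car2 with 31.8 and 42.8 TPM in the Atoh1 sort and 34.2 to 97.4 TPM in the supporting cell libraries. With the block and only the native libraries fitted, 1 of the 10 was higher and 3 were lower, Car14 among them (adjusted p = 0.0201).

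Markers of other cell types were read beside these results. The Sox2 sort held glial transcripts, at a summed 611 and 1224 TPM over 9 genes, against 198 and 208 TPM in the Atoh1 sort and 148 and 208 TPM in the Lgr5 sort. Foxd3, a transcription factor gene of neural crest and early glia, passed against the mean (adjusted p = 0.0366), but against the Lgr5 sort it did not (adjusted p = 0.996). Genes of other cochlear epithelium summed to 130.4 and 28.2 TPM in the Atoh1 sort, 82.5 and 191 TPM in the Lgr5 sort and 436 and 2040 TPM in the Sox2 sort. Most of that in the Sox2 sort was Oc90, an otoconial protein gene of roof and vestibular epithelium, at 289 and 1762 TPM, against 112 and 19.1 TPM in the Atoh1 sort and 7.57 and 34.5 TPM in the Lgr5 sort. Bmp4 and Gata2, which also stand in this list of other epithelium, passed against both sorts. Mesenchymal genes summed to 270.4 and 149 TPM in the Atoh1 sort and 365 to 703 TPM in the supporting cell libraries. Lum made up much of the sums in the supporting cell libraries. Its level was 76.9 and 28.5 TPM in the Atoh1 sort and 180 to 596 TPM in the others. It passed (adjusted p = 0.0477) but lost the call under each library left out. Of the 7 tested members 3 were positive, Col3a1 at 0.82 among them, and 4 negative. The list's median was 0.49 against the Lgr5 sort and −0.35 against the Sox2 sort. Neuronal genes overlapped between the sorts, with 266 and 328 TPM in the Atoh1 sort and 97.6 to 353 TPM in the others.

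On the other side, the summed blood cell transcripts were highest in the Atoh1 sort. The 6 erythroid genes summed to 193 and 281 TPM in the Atoh1 sort, against 105 and 1.37 TPM in the Lgr5 sort and 1.72 and 103 TPM in the Sox2 sort. The 10 immune genes summed to 44.8 and 27.2 TPM in the Atoh1 sort and 3.74 to 22.2 TPM in the supporting cell libraries. Ptprc was at no more than 0.155 TPM in any library. Within the sequencing dates, the median difference of the 4 tested immune genes was 1.86 for replicate 1 and −0.11 for replicate 2. Only 1 of these 4 was positive on both dates. No erythroid or immune gene passed in the main fit. With the block and only the native libraries fitted, C1qb was higher (2.00, adjusted p = 0.0434), 1 of 4 tested immune genes, and no erythroid gene passed. In that fit 3.76% of all tested genes were higher. The 4 Y-linked genes summed to 77.7 and 52.0 TPM in the Atoh1 sort, against 37.6 and 1.19 TPM in the Lgr5 sort and 45.9 and 33.1 TPM in the Sox2 sort. No gene of the 58 lay on the Y chromosome and 3 lay on the X. Most endothelial and melanocyte genes stayed below the filter, with 2 of 7 tested in each list. The part of any of these cell types in the differences was not tested.

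**Figure D4:**
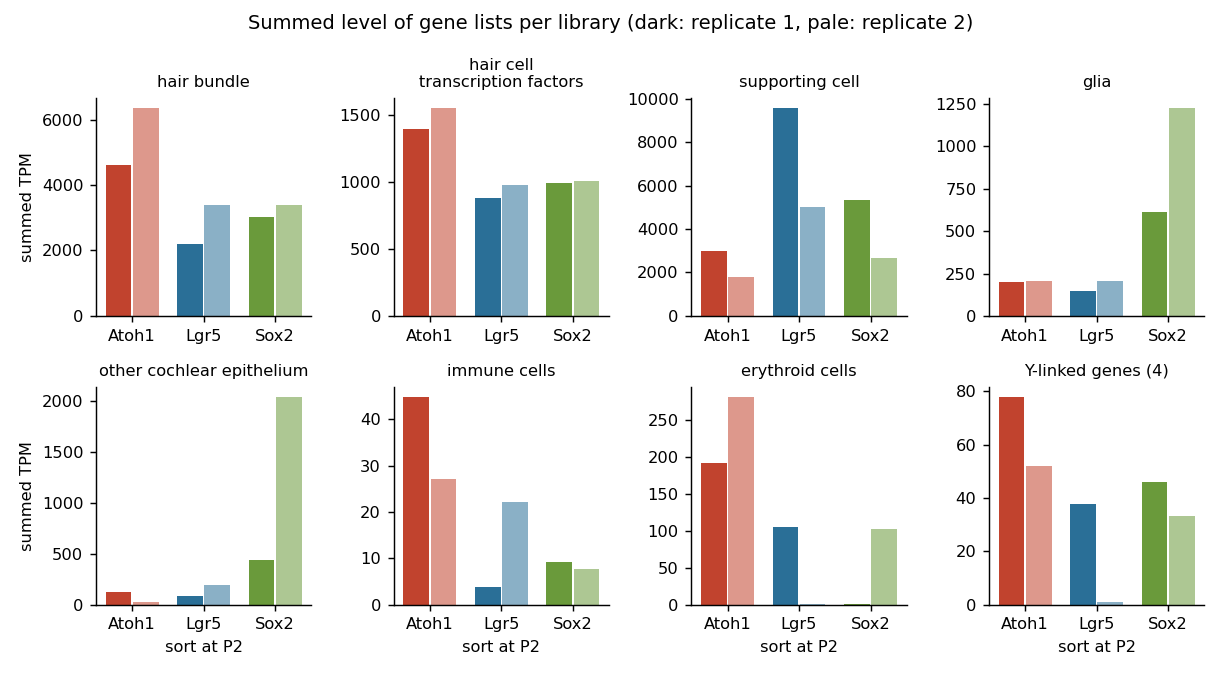
Summed TPM of 8 gene lists in each native library, with the Atoh1 sort left of the Lgr5 and Sox2 sorts and replicate 1 dark, replicate 2 pale. Hair bundle genes reach 4621 and 6343 TPM in the Atoh1 sort and 2207 to 3389 TPM elsewhere; glial and other epithelial genes are highest in the Sox2 sort, and erythroid genes are highest in the Atoh1 sort.

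Testing the sorts separately also showed where they parted. Past the threshold against the Lgr5 sort only were 54 genes, 21 higher and 33 lower, and in 5 of these the Lgr5 and Sox2 sorts differed by their own test (90 of all tested genes did, 0.69%). Against the Sox2 sort only it was 142 genes, 25 higher and 117 lower, with the sorts differing in 60. Among the 58 genes the sorts differed in none. Trh, the precursor of thyrotropin-releasing hormone, had 55.6 and 17.98 TPM in the Atoh1 sort, 48.5 and 8.72 TPM in the Lgr5 sort and 0.0808 and 0 TPM in the Sox2 sort. Scg2, a secretogranin, had 2.78 and 0.00855 TPM in the Atoh1 sort, 23.7 and 453 TPM in the Lgr5 sort and 0.955 and 6.38 TPM in the Sox2 sort. The single gene past both with opposite signs, singled out after its values were seen, was the transcription factor gene Zeb2, with 5.81 and 2.84 TPM in the Atoh1 sort, 1.20 and 0.344 TPM in the Lgr5 sort and 16.1 and 16.7 TPM in the Sox2 sort.

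The 58 genes were then read in the sorted organoid cultures. The levels of these libraries do not enter the native differences, but their spread entered the fit that called the 58. Between day 10 and day 0, 20 of the 40 lower genes fell, none rose and 20 did not pass, where 14.1% of all tested genes fell and 13.2% rose. Npnt had 1.38 and 2.22 TPM at day 10, against 30.9 and 26.0 TPM at day 0 (−3.41 ± 0.34, adjusted p = 3.39e-05). Gata2 had 0.449 and 0.562 TPM at day 10, against 15.5 and 14.0 TPM at day 0 (−3.38 ± 0.39, adjusted p = 6.71e-05). Lamb1, Mest, Mgst1 and Sorl1 fell as well, by 3.42, 2.96, 2.53 and 1.95 on the log2 scale. Bmp4 was low at both times, with 0.0953 and 0.643 TPM at day 10 and 2.28 and 1.46 TPM at day 0 (adjusted p = 0.103).

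Of the 18 higher genes only Ppme1 and Cacng5 rose in the cultures, and none fell. Ppme1 had 123 and 101 TPM at day 10, against 20.2 and 15.6 TPM at day 0 (2.58 ± 0.39, adjusted p = 0.000401), and Cacng5 had 4.51 and 2.86 TPM at day 10, against 0.0732 and 0 TPM at day 0 (adjusted p = 0.000221). Car3 stayed under 1 TPM, with 0.291 and 0.869 TPM at day 10 and 0 TPM in both day 0 libraries (adjusted p = 0.303), and Slc26a5 reached at most 0.552 TPM. Of the 73 tested genes of the 5 hair cell lists 56 rose between day 10 and day 0 and none fell, against 13.2% and 14.1% of all tested genes. Otof of the inner hair cell list had 192 and 126 TPM at day 10 and at most 0.0922 TPM at day 0 (adjusted p = 3.58e-05), and Chrna10 of the outer hair cell list had 219 and 129 TPM at day 10 and at most 0.111 TPM at day 0 (adjusted p = 1.29e-05). The labels do not give the marker by which these cultures were sorted.

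**Figure D5:**
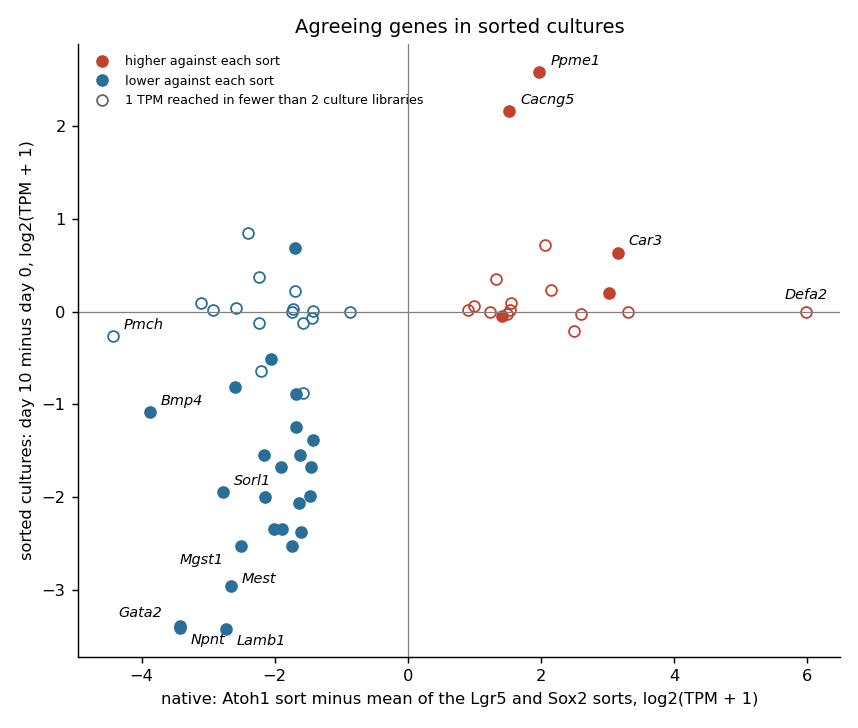
The 58 genes that differed from each supporting cell sort, with their native log2(TPM + 1) difference (x axis) and the difference between day 10 and day 0 in sorted cultures (y axis); open circles reached 1 TPM in fewer than 2 culture libraries. Of the 40 lower genes 20 fell between day 10 and day 0, and of the 18 higher genes 2 rose, Ppme1 and Cacng5.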

How the data were processed

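RNA was measured in 18 mouse cochlear libraries, of which 6 native sorts were compared and 4 sorted cultures read beside them. Per the labels' protocols, mesenchyme and neurons were first removed and cDNA was amplified with kits that do not mark strand. The authors deposited 1 TPM value per gene and library, each library summing to 1000000. The submitters' processing notes name STAR, Salmon, FastQC, DESeq2 and mm10, with no version or role. Other steps were not given in the sources used here. As TPM keeps no depth, no intervals are given.

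Of 47729 identifiers, 47310 matched GENCODE M21 on the same build, and 21697 were protein coding. Values were changed to log2(TPM + 1), which understates the change of low genes, keeping genes that reached 1 TPM in 2 or more native libraries. All 18 libraries entered 1 limma fit (version 3.58.1, R 4.3.3, variance trend, 9 groups, 9 residual and 4.3 prior degrees of freedom), tested on simulated data first. Adjustment over the 13038 genes followed Benjamini-Hochberg, with a threshold of 0.05. Tables were made with Python 3.11.15 and pandas 2.3.3.

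Replicate numbers match the labelled sequencing date of the native libraries, which is where the pairing comes from; deviations of same-numbered libraries from their group means correlated at 0.151 to 0.269. The fit with that number as a block is therefore given beside many, though not all, of the calls it changes. It was made over all libraries or, where so stated, over the 6 native libraries alone. The block over those 6 leaves fewer residual degrees of freedom than the 9 of the main fit, and it called the most genes of all settings.

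The members and the 22 gene lists were chosen with earlier results of these data known, and the culture comparison was added after seeing the data. Named genes are the 4 markers, the sort genes, the up to 12 highest and 12 lowest genes that differ from each sort without overlap at 5 TPM or more (ribosomal protein genes and provisional names such as AW551984 are not taken), the past members and 2 most abundant others of each list, and 3 genes per direction past against 1 sort only. Other list members named (such as Espn, Gpsm2, Tmc1, Ush1c, Fst, Otogl, Dll1, Jag2, Bmpr1b, Hspa1b and B2m) were chosen after their values were seen. A few list members are not reported here. Alternatives were other pseudocounts, filters, scalings, spread estimates and gene sets, and leaving out each library.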

Additional observations from a re-analysis of the deposited data

Results flagged for a closer look

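The difference from the Lgr5 sort and that from the Sox2 sort were not the same in 7 named genes, by the test of the Sox2 sort against the Lgr5 sort (limma, adjusted over all tested genes). As log2 values of the Sox2 sort minus the Lgr5 sort, 3 genes expressed by glia were higher in the Sox2 sort: Pmp22 by 5.09 (adjusted p = 0.000482), Mbp by 4.49 (adjusted p = 0.00302) and Foxd3 by 1.50 (adjusted p = 0.00153). The glial list summed to 611 and 1224 TPM in the Sox2 sort, against 148 and 208 TPM in the Lgr5 sort. The other 4 were lower in the Sox2 sort: Scg2 at −4.80 (adjusted p = 0.0487), Trh at −4.40 (adjusted p = 0.00287), Gng4 at −2.80 (adjusted p = 0.0325) and Rab37 at −2.74 (adjusted p = 0.029). Scg2 differed widely within the Lgr5 sort, with 23.7 and 453 TPM. Gng4 had 3.68 and 0 TPM in the Sox2 sort, against 15.3 and 12.9 TPM in the Lgr5 sort, and Rab37 1.23 and 0.359 TPM in the Sox2 sort, against 9.63 and 11.8 TPM in the Lgr5 sort. Foxd3 and Trh are among the 209 genes that passed against the mean, so for them that mean joins unlike values.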

How the results depend on the processing

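Counts are given against the mean, against each sort, against the Lgr5 sort and against the Sox2 sort (209, 58, 113 and 201 as reported). They were 76, 17, 22 and 50 with only the 6 native libraries fitted, 392, 99, 230 and 291 with the replicate block, 1137, 328, 1003 and 555 with the replicate block and only those 6 fitted, 109, 12, 17 and 93 with a pseudocount of 0.1, 290, 115, 208 and 349 with no filter, 99, 21, 35 and 88 with a filter of 5 TPM, 325, 73, 175 and 221 after quantile normalization, and 45, 10, 15 and 57 for genes also expressed in the cultures (chosen after seeing the data). With a pseudocount of 5 the 257 calls against the mean split into 106 higher and 151 lower, and with no filter into 129 and 161. Leaving out 1 library gave 44 to 248, 25 to 62, 37 to 122 and 89 to 221; the fewest against the mean (44), each sort (25) and the Sox2 sort (89) came without Atoh1 replicate 2, and 25 and 37 against each sort and the Lgr5 sort without Lgr5 replicate 1, where a lone library is assumed to vary like the other groups. Without Sox2 replicate 2 the counts were 152, 35, 100 and 90, and without Sox2 replicate 1 they were 181, 36, 101 and 191. Rescaling, no variance trend and every biotype stayed within 1.5 times. Why these counts moved was not tested beyond what each setting leaves out. Of 78 named genes, with 1379 alternative values in all, 1268 kept direction and call, 56 lost the call, 42 gained one and 13 reversed, none of them called. Without 1 library, Sox2 ranged from −1.06 to 0.063, Oc90 from −2.48 to 0.021 and Vmo1 from −1.71 to 0.086 (Atoh1 replicates 1 and 2 left out), Cd68 from −0.82 to 1.13 (likewise, and −0.058 without Sox2 replicate 2), Egr1 from −1.19 to 0.25 (likewise, and 0.060 without Sox2 replicate 1), Cnp from −0.063 to 0.36 (Lgr5 replicates 1 and 2 left out, and −0.028 without Sox2 replicate 1), Mcm2 from −0.072 to 0.41 (Lgr5 replicates 2 and 1 left out) and Pmel from −0.24 to 0.098 (Sox2 replicates 2 and 1 left out). Vmo1 was at 0.046 with a pseudocount of 0.1 and Pmel at 0.099 after quantile normalization. With only the native libraries fitted the block gave 22 named genes a call and ended that of Foxd3 (adjusted p = 0.171). Over all libraries, beyond those given, the block lost no call of a named gene and added those of Mbp and Flt1 (adjusted p = 0.0459 and 0.0458). TPM holds no depth, so the limit for low genes is unknown.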

Other observations

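The lists not yet described gave no call against the mean in the main fit. Of 16 immediate early and heat shock genes of tissue dissociation, 12 were negative with a median of −0.63, and their summed level was 2440 and 1274 TPM in the Atoh1 sort, against 5391 and 2938 TPM in the Lgr5 sort and 3539 and 1145 TPM in the Sox2 sort. The heat shock gene Hspa1b had the opposite sign, with 18.9 and 12.2 TPM in the Atoh1 sort, against 2.64 and 1.51 TPM in the Lgr5 sort and 3.73 and 1.54 TPM in the Sox2 sort. Its difference of 2.32 ± 0.54 did not pass (adjusted p = 0.0512), but did with the replicate number as a block over all libraries (adjusted p = 0.00813). With the block and only the native libraries fitted, 2 of the 16 dissociation genes were higher and 6 lower. Of all tested genes 3.76% were higher and 4.96% lower in that fit. In the same fit no cell cycle gene passed and 1 housekeeping gene was lower. The 19 tested cell cycle genes had a median of −0.0011, whose sign depends on the scaling, and Mki67 stayed at no more than 0.444 TPM in every native library. The 12 housekeeping genes had a median of −0.12, and B2m, a light chain of class I major histocompatibility complexes, had 18.9 and 7.16 TPM in the Atoh1 sort and 24.8 to 30.9 TPM in the supporting cell libraries (adjusted p = 0.104, and 0.0474 with the block). Mael, known for silencing transposons in the germ line, was chosen after its values were seen: it had 3.80 and 3.13 TPM in the Atoh1 sort and at most 0.0144 TPM in the supporting cell libraries (adjusted p = 3.02e-05).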
